A study of Mus musculus with 18 samples.

Results

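The nuclear genes of oxidative phosphorylation were followed in astrocytes of the primary motor cortex (M1) of mice at 3 stages of learning a motor task. Members were taken by name from the table of 23924 genes: every gene called Nduf followed by a, b, c, s or v and a number, Sdha to Sdhd, Uqcr genes, Cox4 to Cox8 genes and Atp5 genes. This gave 82 genes, of which 35 belong to complex I, 4 to complex II, 8 to complex III, 18 to complex IV and 15 to complex V. Ndufa4 was counted with complex IV, where its protein is a subunit. Atp5s and Atp5sl matched by name only and are not stoichiometric subunits of a complex. Ndufab1, Cox7a2l and Ndufa4l2 did not match the name rule and are not counted among the 82.

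All animals were C57BL/6 mice with no transgene or engineered allele in the labels, and RNA was sequenced as stranded total RNA, with 6 libraries in each group. Naive mice (12 to 21 weeks old) had no training. Novice mice (11 to 13 weeks) had 3 days and expert mice (13 to 15 weeks) the full course of a task in which a water-restricted animal pushes a lever after a cue to earn water. Each group held 2 libraries labelled female and 4 labelled male. How the astrocytes were isolated is not in the labels. They do not say either whether libraries stem from different animals, and p-values therefore measure only the spread between these libraries. Nor do they say whether naive mice were water restricted, so training, restriction and its duration cannot be told apart. Age differed too, with novice and expert ranges meeting only at 13 weeks, and was not a covariate in any fit.

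Oxidative phosphorylation takes electrons from NADH at complex I and from succinate at complex II, passes them through coenzyme Q, complex III and cytochrome c to oxygen at complex IV, and uses the resulting proton gradient to make ATP at complex V. Most subunits are encoded in the nucleus, and some of those of complexes I, III, IV and V in mitochondrial DNA. Astrocytes are known for high glycolytic flux and lactate release, and they also hold respiring mitochondria in the soma and in fine processes.

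Values are in FPKM, the number of fragments corrected for transcript length and for the library's mapped total, so levels can be set side by side between genes. Read totals were not analysed here. A step in the low values gave the FPKM of 1 fragment on a 1 kb transcript as 0.604 to 1.686 in 17 libraries, while expert 3 showed no clear step. In the 17 libraries 62.7% to 78.1% of the low values lay within 0.1 steps of a whole multiple, against 38.2% in expert 3. The step is therefore a rough estimate. Of 22 astrocyte markers none was at 0 in any library. The same held for the 15 neuron, 15 endothelial and 10 pericyte markers below, so this does not single out astrocytes. The summed level of the astrocyte markers ran from 2259 to 8405 FPKM over the naive libraries, 2219 to 5565 over the novice and 2957 to 11006 over the expert ones. The sum of 15 neuron markers ran from 181 to 1084, 203 to 1476 and 230.1 to 1438 FPKM. Among the other lists, 15 endothelial, 10 pericyte, 12 oligodendrocyte, 12 microglial and 9 blood markers summed to 284 to 1198, 131 to 441, 127 to 295, 39.0 to 102 and 14.7 to 56.2 FPKM over all libraries. In bulk RNA, fewer cells of a type and less RNA per cell cannot be told apart. Xist and Ddx3y went against the labelled sex in novice 1 and novice 3.

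The libraries also stood apart in the signal over 1476 genes that are normally silent in brain (olfactory, vomeronasal and taste receptors). This mean signal was 0.303 to 3.35 FPKM in 10 libraries (naive 1 to 4, novice 1 and 2, expert 1, 2, 3 and 6) and 4.73 to 6.80 FPKM in the other 8 (naive 5 and 6, novice 3 to 6, expert 4 and 5). Naive and expert thus held 4 libraries of lower and 2 of higher signal, and novice 2 of lower and 4 of higher. The 10 and 8 libraries were separated on the data and are not groups of the study. Every complex stood lower in the 8 than in the 10, as described below, and the members' median in each comparison of training groups is given also inside the 10 and inside the 8. The source of the silent-gene signal was not tested.

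Most members were among the abundant transcripts of these libraries. The mean over 18 libraries exceeded 100 FPKM for 21 members, lay between 20 and 100 FPKM for 48 and was under 20 FPKM for 13, and 56 members stood in the top 5% of tested genes. Cox8a, a small membrane subunit of complex IV, was the most abundant member at 568 FPKM. Atp5k, the e subunit of ATP synthase, followed at 457 FPKM, Cox6a1 at 434 FPKM, Cox6c at 416 FPKM and Cox4i1, the largest nuclear subunit of complex IV, at 368 FPKM. The large catalytic proteins were lower per length, with 155 FPKM for Atp5b, 51.1 FPKM for Sdha, 22.4 FPKM for Ndufv1 and 17.9 FPKM for Ndufs1. Many of these short transcripts have processed pseudogenes elsewhere in the genome, with which reads can be shared, and the sources used here do not say how such reads were assigned.

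The members' promoters were looked up in the RefSeq promoter table (GRCm38.p6, 250 bases before to 50 after the start). It held 74 distinct promoters for 68 of the 82 members, matched by symbol. Letters of 3 motifs known from respiratory genes were searched on both strands: the NRF1 core GCGCATGC, the ETS factor site CCGGAAGT (bound by NRF2/GABP) and the YY1 core AAGATGGC. The NRF1 core was in 10 member promoters (13.5%) against 2.73% of all 32544 promoters, the ETS site in 5 (6.76%) against 3.92%, and the YY1 core in 12 (16.2%, 11 genes) against 2.77%. For all of the 11 genes but Atp5f1 (-3) and Atp5j (-88), a YY1 match lay 23 to 39 bases after the start. A match describes the letters only, and no relation between motifs and levels was tested. In all, 25 members had at least 1 of the 3 motifs. The stretches below end at the base before the start. They show 1 match each for an abundant member of complexes IV and V and for a member of complexes II and III, and a YY1 match. The last is Ndufa1, whose window held none of the 3, as for most of the 68 members. Between libraries of lower and higher silent-gene signal Ndufa1 went against the other members of complex I. Capitals mark the motif, given as its reverse complement for Sdhb.
Cox6a1 (chr5:115348959-115349140, minus strand, NRF1 core from -162): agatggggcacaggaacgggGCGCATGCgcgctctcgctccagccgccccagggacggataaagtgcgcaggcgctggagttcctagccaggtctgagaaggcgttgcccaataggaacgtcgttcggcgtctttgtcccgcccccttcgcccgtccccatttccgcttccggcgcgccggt
Atp5k (chr5:108434400-108434519, minus strand, NRF1 core from -50): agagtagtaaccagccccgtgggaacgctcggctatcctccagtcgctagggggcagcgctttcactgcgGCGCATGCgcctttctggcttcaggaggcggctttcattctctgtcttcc
Sdhb (chr4:140961151-140961270, plus strand, NRF1 core on the other strand from -54): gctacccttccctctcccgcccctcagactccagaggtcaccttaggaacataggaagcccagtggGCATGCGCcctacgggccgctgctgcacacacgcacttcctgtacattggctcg
Uqcr11 (chr10:80406822-80406941, minus strand, ETS factor site from -66): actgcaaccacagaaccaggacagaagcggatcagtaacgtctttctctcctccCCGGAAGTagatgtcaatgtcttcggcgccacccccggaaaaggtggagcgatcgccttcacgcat
Atp5j (chr16:84834977-84835096, minus strand, YY1 core from -88): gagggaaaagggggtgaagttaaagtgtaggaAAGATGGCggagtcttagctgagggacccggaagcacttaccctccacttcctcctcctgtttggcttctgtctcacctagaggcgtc
Ndufa1 (chrX:37191239-37191358, minus strand, none of the 3 motifs): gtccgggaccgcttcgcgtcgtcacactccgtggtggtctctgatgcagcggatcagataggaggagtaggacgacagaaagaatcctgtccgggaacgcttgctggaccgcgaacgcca
In Cox6a1 and Atp5k the NRF1 core is read on both strands at overlapping positions.

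The comparison of novice with naive libraries asks what the first days of training go with. No member passed limma's test after Benjamini-Hochberg adjustment over the 21745 genes tested (smallest adjusted p of a member 0.89), and neither did any other gene (0%). Of the 81 members tested, 70 had a lower mean in novice libraries, against 43% of all genes, and the median log2 fold change of members was -0.34 against 0.07 for all genes. Genes of like level (927 genes between 29.6 and 100.1 FPKM, the middle range of the members, which are included) also stood lower in 70.3% of cases, with a median of -0.23. At an unadjusted p under 0.05, 2 members were lower (Cox7a1 and Uqcr10) and 0 higher, against 1.88% of all genes lower and 2.72% higher. Inside the 10 libraries of lower silent-gene signal the members' median was -0.15 (2 novice against 4 naive), and inside the 8 of higher signal it was 0.25 (4 against 2). Its sign thus depended on which libraries were compared. Leaving out naive 6 put the median at -0.54 and leaving out naive 2 at -0.20.

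Expert against naive asks what stands after full training. Again 0 members and 0% of all genes passed (limma, smallest adjusted p of a member 1.0). A lower mean was found for 48 of 81 members against 56.1% of all genes, and the medians were -0.03 for members and -0.05 for all genes. At an unadjusted p under 0.05, 1 member was lower, Ndufa1, and 0 were higher, against 1.43% of all genes in each direction. Genes of like level had a lower mean in 46.9% of cases, with a median of 0.02. The members' median was -0.18 inside the 10 libraries and 0.18 inside the 8. With silent-gene signal as a covariate 0 members passed, and 75 of 81 were lower against 47.3% of all genes. The medians in that fit were -0.32 for members and 0.02 for all genes. There 15 members and 1165 of the 21745 genes had an unadjusted p under 0.05.

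Expert against novice shares its libraries with the other 2 comparisons. Of the members, 0 passed, as did 0% of all genes (limma, smallest adjusted p of a member 0.45). Only 11 of 81 had a lower mean in expert, against 59.6% of all genes and 31.3% of genes of like level, and the medians were 0.26, -0.14 and 0.30. At an unadjusted p under 0.05, 2 members were higher (Ndufb3 and Ndufs7) and 0 lower, against 4.88% of all genes higher and 5.97% lower. Inside the 10 libraries the members' median was 0.02 and inside the 8 it was -0.12. The moderated F test over the 3 groups called 0 members and 0% of all genes. At an unadjusted p under 0.05 it held 0 members against 5.53% of all genes. With silent-gene signal as a covariate it held 8 members (and 1129 genes), and inside the 8 libraries of higher signal 9 of 79 members (and 1157 of 20180 genes), none of them called. Standard errors of the members' log2 fold changes ran from 0.22 to 1.32 with a median of 0.39, and a p over the threshold does not show that groups were alike.

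**Figure D1:**
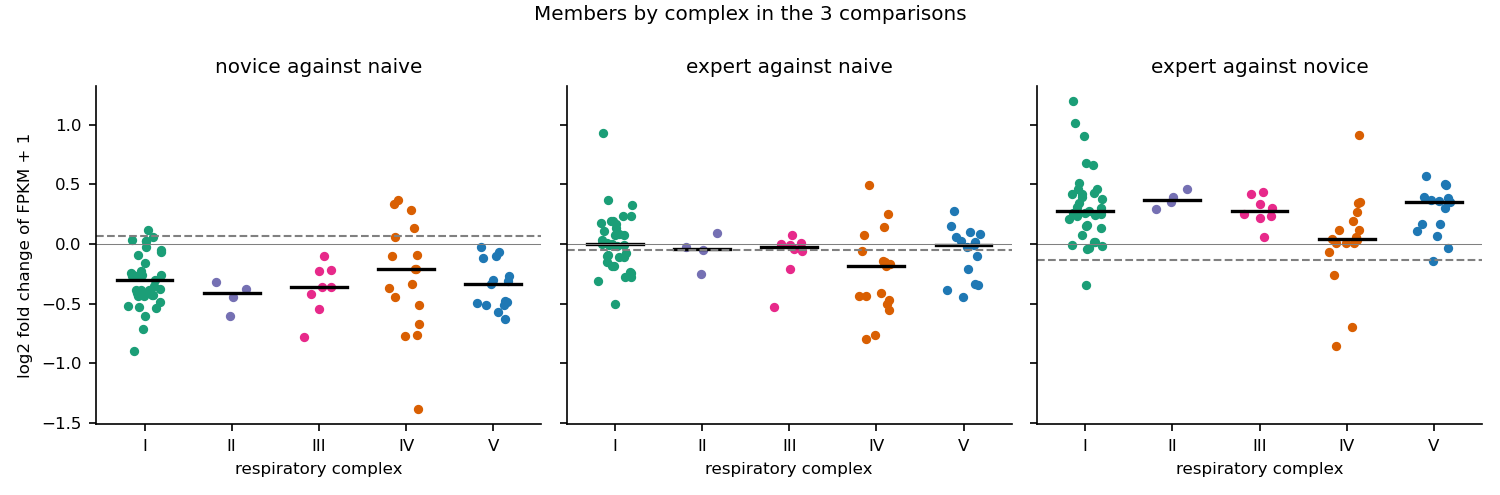
Log2 fold change of FPKM + 1 for each tested member (points), by respiratory complex, in the 3 comparisons. Black bars are medians of a complex and the dashed line is the median over all 21745 genes tested. In novice against naive the medians of all 5 complexes lie below 0, and in expert against naive they lie between -0.18 and 0.

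By complex, novice against naive gave medians of -0.30 for complex I (30 of 35 lower), -0.41 for complex II (4 of 4), -0.36 for complex III (8 of 8), -0.21 for complex IV (12 of 17) and -0.34 for complex V (15 of 15). Inside the 10 libraries of lower silent-gene signal these medians were -0.16, -0.24, -0.37, 0.0037 and -0.17, and inside the 8 of higher signal 0.30, -0.03, 0.19, 0.36 and 0.18, so the sign of complexes I, III and V turned between the 2 sets of libraries and complex IV was not below 0 in either. In expert against naive the medians were -0.0011 for complex I, -0.04 for complex II, -0.03 for complex III, -0.18 for complex IV and -0.0085 for complex V. Within complex V the 5 genes of the F1 head, which carries the catalytic sites, had a median of -0.51 in novice against naive and 0.50 in expert against novice. The 7 core genes of complex I, which carry its flavin and iron-sulphur clusters, had -0.35 and 0.30. The c ring of complex V had -0.30 and 0.17, and its stalk and membrane part -0.31 and 0.17. The accessory genes of complex I had -0.28 and 0.26. These parts were not read inside the 10 and the 8 libraries. There the medians in expert against novice were 0.02 and -0.05 for complex I as a whole and 0.08 and -0.13 for complex V. Under the 32 other settings Atp5b ran from -0.77 to 0.16 in novice against naive and Atp5a1 from -0.74 to 0.27. The mean log2(FPKM + 1) of complex I subunits was 5.57 ± 0.81 for naive libraries, 5.27 ± 0.53 for novice and 5.59 ± 0.58 for expert ones (SD, n = 6). For the 11 common subunits of complex IV it was 7.21 ± 1.01, 6.96 ± 0.77 and 7.09 ± 0.69, so these group differences were smaller than the spread within a group. Marker lists also had different means between groups, with no gene called. Of the astrocyte markers 21 of 22 had a lower mean in novice than in naive libraries (median -0.57) and 22 of 22 a higher mean in expert than in novice ones (0.76). In expert against naive libraries 21 of 22 astrocyte markers (0.20), 15 of 15 endothelial markers (0.63) and 10 of 10 pericyte markers (0.42) had a higher mean. In the same comparison 14 of 15 neuron markers (-0.21), 9 of 12 microglial markers (-0.10) and 8 of 12 oligodendrocyte markers (-0.13) had a lower mean. Of the neuron markers 11 of 15 also had a lower mean in novice than in naive libraries (-0.17). The part of the marker lists in the members' values was not tested.

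In complex I, Ndufs7 carries the last iron-sulphur cluster before coenzyme Q. It ranged from 23.8 to 76.1 FPKM in naive (median 45.8), 19.0 to 37.5 in novice (31.3) and 29.2 to 94.0 in expert libraries (47.1). The 3 ranges overlapped, and the highest value was expert 3. Its log2 fold change was 0.68 (SE 0.29, adjusted p = 0.45, limma) in expert against novice and -0.61 (SE 0.29, adjusted p = 0.89) in novice against naive. These were 0.68 and -0.66 inside the 10 libraries and 0.30 and -0.12 inside the 8. Ndufb3, an accessory subunit of the membrane arm, ranged from 13.5 to 54.6 FPKM in naive (median 42.9), 8.05 to 51.4 in novice (20.8) and 28.1 to 57.6 in expert libraries (44.8). Of the novice libraries 4 lay below the expert range, and novice 1 and 2 lay inside it. The log2 fold change of Ndufb3 was 0.91 (SE 0.39, adjusted p = 0.45) in expert against novice, 0.17 inside the 10 libraries and 0.91 inside the 8.

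The most abundant genes of complex I were the accessory subunits Ndufb9 and Ndufa3. Ndufb9 ranged from 66.3 to 387 FPKM in naive (median 301), 63.6 to 379 in novice (148) and 78.5 to 338 in expert libraries (248). Ndufa3 ranged from 50.4 to 443 FPKM (276), 55.6 to 283 (146) and 64.2 to 354 (212). For both the groups overlapped over most of their range. Ndufs1, the largest core subunit, had medians of 16.1, 17.0 and 19.5 FPKM in naive, novice and expert libraries, and Ndufv1, which binds NADH and flavin, had 28.3, 16.2 and 25.3 FPKM. Of the 35 genes the lowest mean was that of Ndufa11 at 6.80 FPKM.

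Complex II, succinate dehydrogenase, joins the tricarboxylic acid cycle to the chain and is encoded wholly in the nucleus. Sdhd, a membrane anchor, ranged from 10.5 to 30.0 FPKM in naive (median 20.3), 9.80 to 20.9 in novice (10.9) and 7.50 to 24.9 in expert libraries (17.4). Of the novice libraries 5 lay between 9.80 and 12.8 FPKM, at or near the lowest naive and expert values. Its log2 fold change in novice against naive was -0.61 (SE 0.29, adjusted p = 0.89, limma). Sdha, the flavoprotein, had medians of 64.4, 33.4 and 61.0 FPKM and Sdhb, the iron-sulphur subunit, 38.9, 29.1 and 42.9 FPKM. The log2 fold change of Sdha in novice against naive was -0.37 (SE 0.38), and neither gene passed the test.

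In complex III, Uqcr10 is a small subunit next to cytochrome c1. It ranged from 63.3 to 228 FPKM in naive (median 129), 41.2 to 111 in novice (72.3) and 45.4 to 152 in expert libraries (86.4). Novice 3, 4 and 6 lay below every naive library, and the other novice libraries inside the naive range. The log2 fold change of Uqcr10 was -0.78 (SE 0.33, adjusted p = 0.89, limma) in novice against naive and -0.53 (SE 0.33, adjusted p = 1.0) in expert against naive. It was -0.51 and -0.57 inside the 10 libraries and -0.44 and -0.45 inside the 8. The core proteins Uqcrc1 and Uqcrc2 had medians of 51.0, 33.4 and 53.7 FPKM and of 20.5, 16.7 and 21.7 FPKM. The Rieske iron-sulphur protein Uqcrfs1 had 31.7, 21.2 and 28.6 FPKM, and the small subunits Uqcr11 and Uqcrh 216, 152 and 178 and 201, 129 and 136 FPKM.

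Among the common subunits of complex IV, Cox8a ranged from 174 to 1069 FPKM in naive (median 805), 209 to 1008 in novice (442) and 142 to 785 in expert libraries (483). The groups overlapped, and the novice libraries lay far apart, with 240.0 FPKM or less in novice 3, 5 and 6, 644 in novice 4 and 974 and 1008 in novice 1 and 2. Cox6a1, another small subunit, had medians of 596, 303 and 419 FPKM. Cox7a2, a further small subunit, had medians of 84.0, 47.8 and 62.8 FPKM and a log2 fold change of -0.67 (SE 0.43, adjusted p = 0.89, limma) in novice against naive.

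In complex V, Atp5b is the catalytic beta subunit. It ranged from 62.1 to 286 FPKM in naive (median 188), 76.2 to 173 in novice (92.8) and 76.7 to 283 in expert libraries (184). The novice libraries split into 4 at 76.2 to 93.3 FPKM and novice 1 and 2 at 168 and 173. The log2 fold change was -0.51 (SE 0.40, adjusted p = 0.89, limma) in novice against naive. Atp5a1, the alpha subunit, had medians of 111, 55.7 and 93.8 FPKM and Atp5d, the delta subunit, 55.8, 33.2 and 45.4 FPKM. Atp5k and Atp5h, of the membrane part and stalk, had 538, 323 and 511 FPKM and 242, 163 and 234 FPKM. Groups overlapped for each of these 5 genes.

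**Figure D2:**
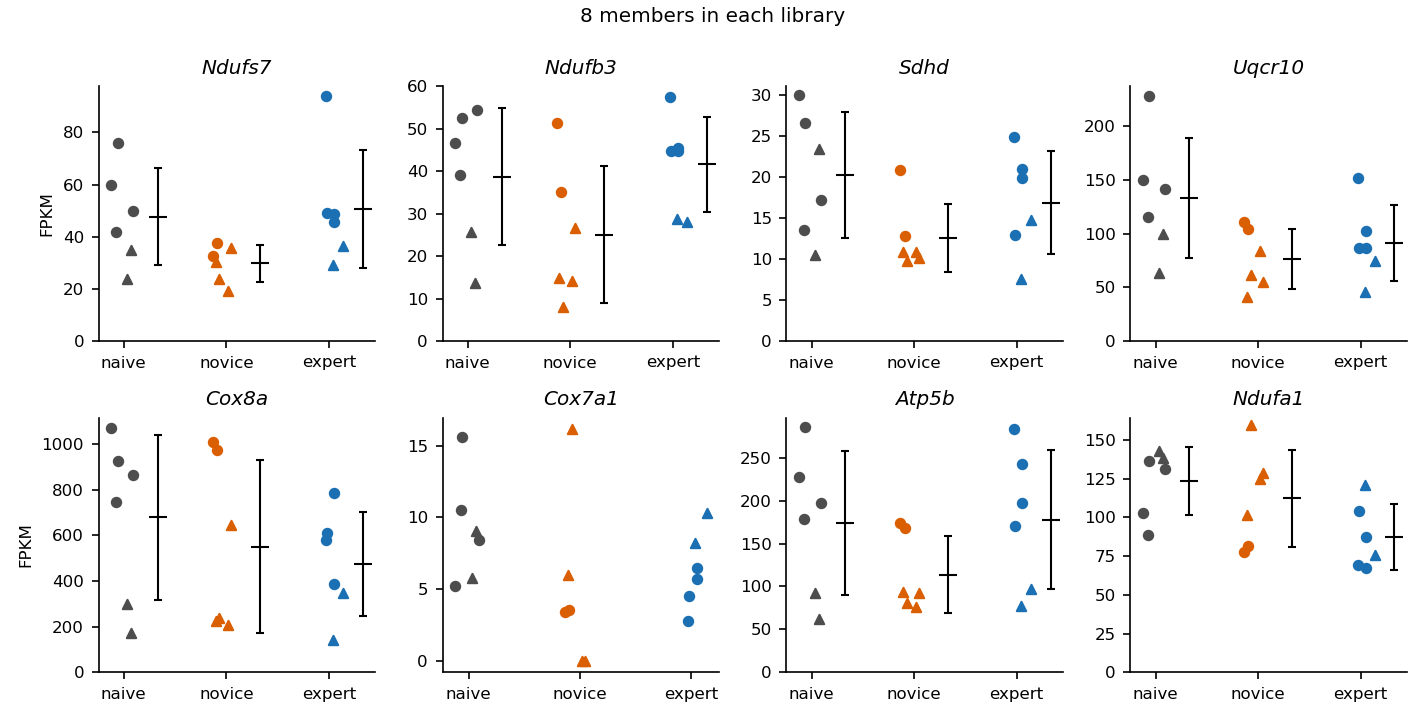
FPKM of 8 members in each library, by group. Circles are the 10 libraries of lower silent-gene signal and triangles the 8 of higher signal, and black bars are the mean with SD (n = 6), left out for Cox7a1, which is listed at 0 in novice 4 and 5. For Atp5b all triangles lie below all circles, from 62.1 to 96.6 against 168 to 286 FPKM.

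Several subunits of complex IV and the c ring of complex V exist as paralogues that other tissues use in different amounts. The muscle forms Cox6a2 and Cox7a1 made up a median of 1.12% and 8.24% of their pair with Cox6a1 and Cox7a2 over the 18 libraries. Cox4i2, known from lung, made up 2.27% beside Cox4i1. The forms best known from testis made up 4.81% (Cox6b2 beside Cox6b1), 7.28% (Cox7b2 beside Cox7b) and 0.211% (Cox8c beside Cox8a). These minor forms had means of 2.97 to 7.90 FPKM over the libraries, near the level of the silent genes in the 8 libraries of higher signal. Each of the 6 shares had a higher median in the 8 libraries than in the 10: 3.76% against 1.43% for Cox4i2, 1.85% against 0.889% for Cox6a2, 9.77% against 2.73% for Cox6b2, 13.3% against 6.76% for Cox7a1, 11.1% against 5.23% for Cox7b2 and 1.45% against 0.102% for Cox8c. Mean levels of the 6 major forms ran from 89.7 to 795 FPKM in the 10 libraries and from 37.2 to 285 FPKM in the 8. Those of the 6 minor forms ran from 1.86 to 8.18 and from 4.35 to 7.55 FPKM. A share can thus rise where the major form is lower, without a change of the minor form. Cox8b, the other muscle form, was listed at 0 in 16 libraries and stood at 4.57 FPKM in expert 1 and 8.40 in expert 4, and was not tested. Cox7a1 was listed at 0 in novice 4 and 5 and stood at 3.44 to 16.2 FPKM in the other 4 novice libraries, against 5.21 to 15.6 in naive and 2.76 to 10.3 in expert libraries. Its log2 fold change was -1.38 (SE 0.54, adjusted p = 0.89, limma) in novice against naive. By the rough step, 1 fragment on the annotated Cox7a1 transcript is 1.25 to 3.48 FPKM, so its values and share rest on few fragments. The c ring genes encode the same mature protein behind different import signals. Atp5g1 made up a median of 26.5% of the sum with Atp5g3, and Atp5g2 41.6%, with ranges of 20.4% to 42.8% and 29.2% to 58.8%.

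**Figure D3:**
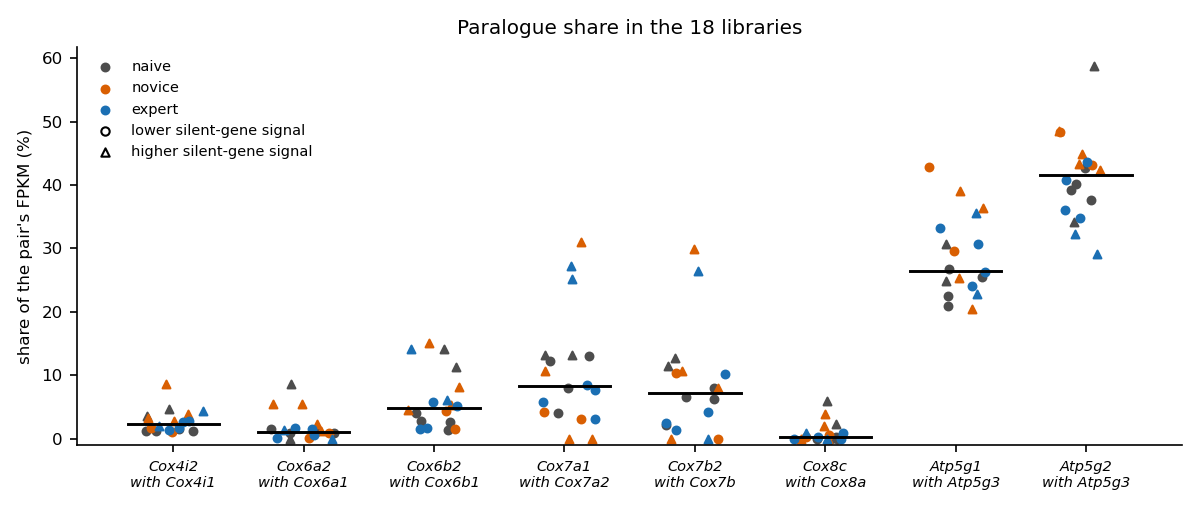
Share of a pair's summed FPKM held by the first named paralogue (%), for 8 pairs in the 18 libraries, with the median as a bar. The minor complex IV forms have medians of 0.211% to 8.24% over all libraries, and the c ring genes 26.5% and 41.6%.

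Between the libraries of lower and higher silent-gene signal the members differed by more than between training groups. In the 8 libraries of higher silent-gene signal 77 of 81 members had a lower mean than in the 10, with a median difference of -1.06 on the log2(FPKM + 1) scale, a 2.08-fold lower level. The median was 0.37 for all genes and -0.83 for genes of like level. For 31 members all 8 libraries lay below all 10, against 5.89% of all genes and 341 of the 927 genes of like level. For 0 members all 8 lay above, against 6.73%. The direction was the same inside each training group, with medians of -1.36 in naive, -0.85 in novice and -0.96 in expert libraries. Astrocyte marker sums differed in the same way, from 4521 to 11006 FPKM in the 10 and 2219 to 3309 in the 8, and neuron marker sums from 389.6 to 1476 and 181 to 402. Their part in the members' difference was not tested.

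**Figure D4:**
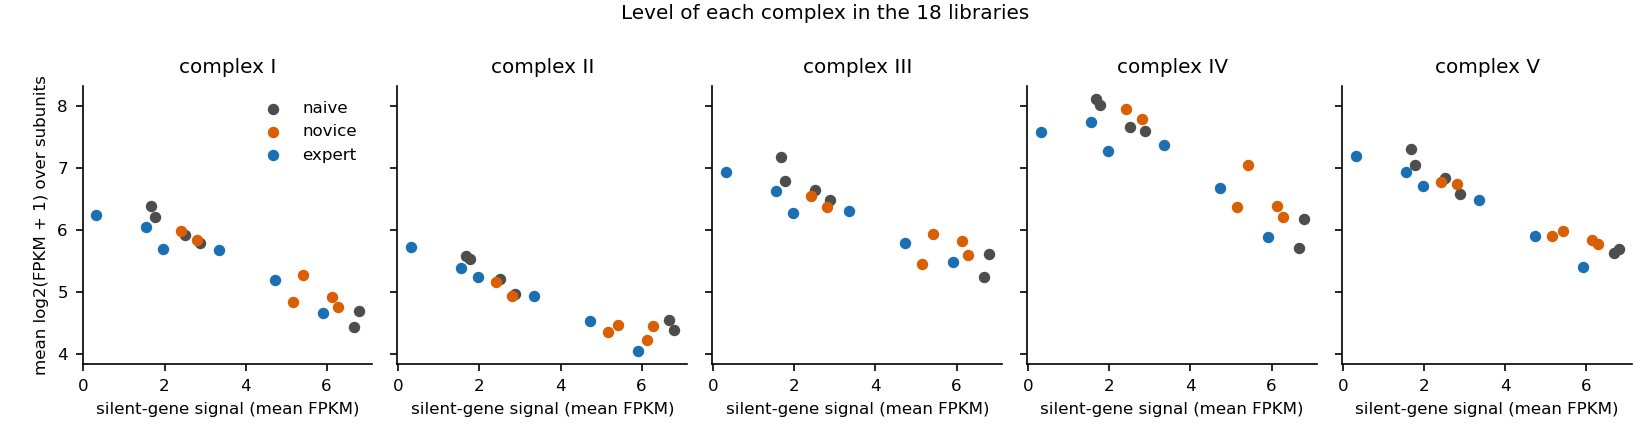
Mean log2(FPKM + 1) over the subunits of each complex (11 common subunits for complex IV) against the mean FPKM of 1476 normally silent genes, 1 point per library, coloured by group. In every panel the libraries above 4.7 FPKM of silent-gene signal lie below those under 3.4 FPKM.

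Between the 2 sets of libraries the median difference was -1.10 for complex I, -1.03 for complex III, -1.06 for complex IV and -1.08 for complex V, close to each other, and -0.79 for the 4 genes of complex II. Within complex IV it was -1.52 (2.86-fold) for the 11 common subunits and -0.04 for the 6 tissue forms tested. The F1 head of complex V had -1.24. Within complex I the accessory genes had -1.14 and the core genes -0.88. All 8 libraries lay below all 10 for 5 of 5 F1 head genes, 5 of 7 of the stalk and membrane part and 0 of 3 of the c ring. So they did for 11 of 28 accessory and 3 of 7 core genes of complex I and 4 of 11 common subunits of complex IV. The share was 341 of 927 for genes of like level and 5.89% for all genes. These differences between subsets were not tested, and the subsets also differ in level. Over the tested members without the tissue forms, the Spearman correlation of mean log2 level with the difference was -0.49. More abundant members thus tended to stand further down. The genes of like level (29.6 to 100.1 FPKM) do not match each subset, and the part of level in these differences was not tested. Cox4i1 ran from 338 to 648 FPKM in the 10 libraries and 114 to 309 in the 8, while Ndufs1 ran from 14.7 to 29.5 and 11.3 to 17.3 FPKM.

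A few members went another way and were picked out after their values were seen. Ndufa1, an X-linked accessory subunit of complex I, was the only gene of that complex not lower in the 8 libraries (difference 0.39). It ran from 67.3 to 137 FPKM in the 10 and 75.5 to 159.7 in the 8. By training group it stood at 88.9 to 143 FPKM in naive (median 134), 77.7 to 159.7 in novice (113) and 67.3 to 121 in expert libraries (81.3). Expert 2, 3, 5 and 6 lay below every naive library, and the log2 fold change was -0.51 (SE 0.24, adjusted p = 1.0, limma). The other 3 members without a lower mean were the minor forms Cox6b2, Cox7b2 and Cox8c. In contrast Ndufs5, an accessory subunit with a twin CHCH fold, stood at 16.8 to 85.7 FPKM in the 10 libraries. Of the 8, naive 6 was listed at 0, naive 5, novice 3, novice 5 and expert 4 held 0.0042 to 0.0058 FPKM, and novice 4, novice 6 and expert 5 held 21.5, 28.8 and 30.3 FPKM. Such values lie far under the 0.888 to 2.48 FPKM of 1 fragment on its annotated transcript. Cox7c was listed at 0 in naive 6 and Ndufb6 in novice 5, against 22.0 FPKM or more and 8.54 FPKM or more in the other libraries.

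**Figure D5:**
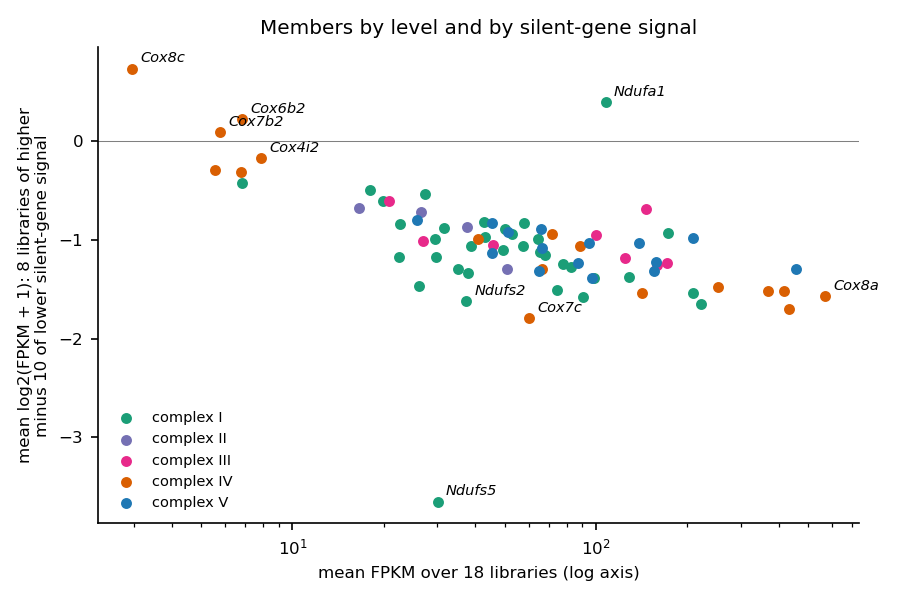
Difference of mean log2(FPKM + 1) between the 8 libraries of higher and the 10 of lower silent-gene signal for each tested subunit, against its mean FPKM (log axis), coloured by complex. Ndufa1 lies above 0 at 108 FPKM while the other members above 20 FPKM lie below, down to -3.65 for Ndufs5.

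Genes that serve the chain without being subunits were read from 5 lists. None of their genes passed limma's test in any comparison. The single genes named below were picked for the smallest F-test p of their list in these data. They are therefore not typical of the lists, and they were not read inside the 10 and the 8 libraries. Among 43 assembly factors 28 had a lower mean in novice than in naive libraries (median -0.10), among 27 genes of the tricarboxylic acid cycle and pyruvate dehydrogenase 21 (-0.30), among 28 of cytochrome c, quinone synthesis and ATP carriers 22 (-0.25), among 25 of the mitochondrial membranes 20 (-0.18) and among 21 regulators of mitochondrial biogenesis 11 (-0.07). The medians in expert against naive were -0.06, 0.01, 0.0070, 0.03 and 0.02, and those in expert against novice -0.03, 0.27, 0.25, 0.24 and -0.02. Surf1, which assists complex IV assembly, stood at 19.1 ± 8.29 FPKM for naive, 12.5 ± 5.09 for novice and 21.2 ± 5.55 for expert libraries (SD, n = 6, as for the next genes). Citrate synthase, Cs, stood at 43.6 ± 17.3, 28.6 ± 11.9 and 48.6 ± 17.4 FPKM, and Pdk2, a kinase that inhibits pyruvate dehydrogenase, at 24.3 ± 10.3, 17.0 ± 5.52 and 29.6 ± 12.2 FPKM. Timm44, of the inner-membrane import motor, stood at 12.4 ± 2.10, 7.20 ± 2.40 and 12.4 ± 4.53 FPKM, and Vdac1, the outer-membrane channel, at 56.3 ± 13.6, 35.5 ± 14.9 and 53.4 ± 21.4 FPKM. The prohibitin gene Phb stood at 16.3 ± 2.53, 14.0 ± 2.23 and 19.3 ± 2.52 FPKM, and Coq10b, of coenzyme Q handling, at 5.42 ± 1.82, 6.93 ± 2.56 and 8.82 ± 2.16 FPKM. The adjusted p of Timm44 in novice against naive was 0.89 (limma), with a log2 fold change of -0.76 (SE 0.26). Yy1, the factor of the motif above, stood at 11.5 ± 3.93, 9.93 ± 1.90 and 14.5 ± 3.67 FPKM, and Gabpb1, a subunit of GABP, at 7.66 ± 5.12, 9.85 ± 2.80 and 5.60 ± 1.39 FPKM. Between the 8 and the 10 libraries the medians were -0.70 for the tricarboxylic acid cycle, -0.68 for membranes, -0.57 for carriers, -0.21 for assembly factors and 0.11 for regulators of biogenesis.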

How the data were processed

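RNA of 18 libraries, 6 per group, was compared over genes. Per the labels' protocols, stranded total RNA libraries were sequenced. Per the submitters' processing notes, the authors used TopHat and Cufflinks with mouse build mm9. For versions, annotation and any scaling between libraries the record is silent (not given in the sources used here). FPKM values, as the authors deposited them, were used, although the table is titled normalized counts. Of 23951 rows, 27 whose names a spreadsheet had turned into dates were left out. Promoters from RefSeq (GRCm38.p6) were matched by symbol only.

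Genes reaching 1 FPKM in 6 or more libraries (21745) entered a fit of log2(FPKM + 1) by limma 3.58.1 under R 4.3.3 (1 mean per group, eBayes with a mean-variance trend, two-sided, Benjamini-Hochberg over all genes tested, threshold 0.05), so fold changes of low genes are understated. The fit was tested on simulated data with independent noise per gene and no split in silent-gene signal. That test cannot show how the fit behaves under such a split. A value under 0.001 FPKM is described as listed at 0. No pair of libraries shared more than 0.0046% of their values. Lists were described by counts and medians. Full values were given per complex for the 2 members of smallest F-test p and the 2 most abundant (1 each for complex II). They were also given for paralogue sets and 8 catalytic or core subunits. From each other list at most 2 genes were named, those with the smallest F-test p. The members and lists were chosen with earlier results of these data known. Alternatives were the pseudocount, filter, scaling, covariates, a replicate block, the variance model, leaving out each library and, chosen after seeing the data, the silent-gene classes and leaving out novice 1 and 3.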

Additional observations from a re-analysis of the deposited data

Results flagged for a closer look

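Among 123 groups of 6 libraries checked, 1 library stood further from the others than Dixon's 95% limit in 4. Chance gives about 1 in 20. Ndufs7 was 94.0 FPKM in expert 3, against 29.2 to 49.0 in the other expert libraries. Without expert 3 its log2 fold change in expert against novice was 0.49 in place of 0.68. Sdhd was 20.9 FPKM in novice 2, against 9.80 to 12.8 in the other novice libraries. Uqcrfs1 was 34.6 FPKM in the same library, against 16.9 to 22.9. Cox7a1 was 16.2 FPKM in novice 3, whose Xist and Ddx3y went against its labelled sex, against 0 to 5.99 in the other novice libraries. Without novice 3 its log2 fold change in novice against naive was -1.83 in place of -1.38.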

How the results depend on the processing

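No member passed limma's test under any of 32 other settings, where the smallest adjusted p was 0.21. The members' median in novice against naive was -0.34. It was -0.40 with trimmed-mean scaling, -0.21 with quantile normalization, -0.11 with silent-gene signal as a covariate and 0.03 with the lower or higher class as a covariate. Expert against naive (-0.03) gave 0.07, 0.03, -0.32 and -0.03, and expert against novice (0.26) gave 0.42, 0.22, -0.21 and -0.05. Scaling also moved the median of all genes in expert against novice from -0.14 to -0.025 (trimmed mean) and 0.045 (quantile). Leaving out 1 library gave -0.54 to -0.20, -0.27 to 0.15 (without naive 6 and without expert 4) and 0.11 to 0.43 (without expert 3 and without expert 4). Without novice 1 and 3 the medians were -0.42, -0.03 and 0.30. Of 105 fold changes of single members, 78 changed sign under some setting, none of them called.

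The replicate numbers were not treated as pairs, because the labels name no shared animal, litter or day. Of 18 pairs of same-numbered libraries 10 had a correlation of deviations over 0.1 (range -0.36 to 0.46). Differently numbered libraries were not set beside them, so these values cannot decide on pairing. With the replicate block, 0 members were called, the medians were unchanged at -0.34, -0.03 and 0.26, and 4, 0 and 3 members had an unadjusted p under 0.05 in place of 2, 1 and 2.

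Depth was only roughly estimated from the step in low values, FPKM of short transcripts is coarse, and 9 members were listed at 0 in at least 1 library. Pseudogene and paralogue reads could not be separated.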
